A study of Mus musculus with 786 samples.

Results

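Most genes of a single blood stem cell are detected in some cells and missed in others, while a small set is seen in nearly all of them. Here a gene was counted as detected in a cell at FPKM 1 or more (fragment counts corrected for the length of the transcript and for library size), and a gene was kept if it was detected in at least 90% of the cells on each of 7 plates. Of 21664 genes in the single-cell tables, 125 met this limit (0.577%). Of these, 55 have names of ribosomal proteins starting with Rpl or Rps and were set aside, which left 70 genes. The genes were thus chosen by their detection in these cells, and their detection, level and spread are given as a description, without a test.

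The cells came from bone marrow of C57BL/6 mice of 6 to 8 weeks and were sorted by surface markers. MPP1, multipotent progenitors close to the stem cell, had the gate CD48-, CD150+, CD135- and CD34+, and haematopoietic stem cells (HSC) differed from it by being CD34-. There was 1 plate each of MPP1 and of HSC from bled mice, beside MPP1 plates 1 and 2 and HSC plates 1, 2 and 3, and 18 sorted bulk populations of 1000 cells each had 1 library per population. Single cells were amplified by Smart-seq, which copies polyadenylated RNA, and the labels name the C1 microfluidic system and RNA spikes for HSC plate 3 alone. Each bled group is 1 plate and stands outside the table of MPP1 plates 1 and 2 and HSC plates 1 and 2. Bleeding, plate and table can therefore not be told apart. HSC plate 3 stands in its own table, and its label names both normal and bled mice. The columns of HSC plate 1 could hold its first run or its repeat run. The labels give neither the sex of the mice nor whether a plate held cells of 1 mouse, and the bulk HSC library carries the marker string with CD34+ that the bulk MPP1 library also has. The spread between plates may therefore be technical.

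Of 460 wells labelled with 1 cell, 373 entered, those with at least 1000 genes at FPKM 1. In the 87 left out, the 70 genes were detected in a median of 31.0% of wells, between 6.90% and 80.5%. None of the 70 reached 90% there, so detection in nearly every cell holds for the wells that entered. The cells numbered 50 for bled MPP1 and 48 for bled HSC, 51 and 48 on MPP1 plates 1 and 2, and 50, 53 and 73 on HSC plates 1, 2 and 3. The bled MPP1 plate had the most genes per cell, a median of 3046.5, and HSC plate 3 the fewest, 1969. Marker lists of other cell types were present to different degrees, here as the summed FPKM of a list on its lowest and highest plate. Macrophage markers summed to 105 and 216 (3 of 9 genes reached FPKM 1 in no cell), T and NK markers to 37.3 and 184 (2 of 11), erythroid markers to 30.8 and 116 (3 of 9), and mast cell and basophil markers to 39.1 and 107 (5 of 8). B and plasma cell markers summed to 15.8 and 105 (6 of 9), those of endothelium and stroma to 9.86 and 86.3 (4 of 10), and neutrophil markers to 0 and 10.3 (5 of 10). The macrophage marker Lyz2 was detected in 46.6% to 76.0% of the cells of a plate, and Gata2, a mast cell marker that is also a stem cell gene, in 66.0% to 86.0%. Their part in the results was not tested. None of the 70 genes stood in one of these lists.

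A gene seen in every cell tends to encode something that each living cell needs in many copies: translation factors, chaperones that fold proteins, ubiquitin that tags them for removal, actin, histones and RNA-binding proteins. In blood precursors textbook biology adds proteins of the stem and progenitor programme such as the transcription adaptor Lmo2. Another kind arises in counting, because a processed pseudogene is a copy of a spliced messenger RNA in the genome, and short reads of the parent can be placed on it.

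The set was led by genes of general cell function. Ubb, which encodes a chain of ubiquitin units, had the highest mean over plates (3113 ± 482 FPKM, SD over 7 plates). It was followed by Actb, cytoplasmic beta-actin (2727 ± 977), B2m, the light chain of MHC class I (2317 ± 699), and Eef1a1, which delivers aminoacyl-tRNA to the ribosome (2234 ± 299.7). These 4 genes, the replacement histone gene H3f3b (1146 ± 159), the chaperone gene Hsp90ab1 (864 ± 138) and the nuclear non-coding RNA Malat1 (842 ± 348) were detected in 100% of cells on all 7 plates. The lowest mean was that of Gm9104, at 20.0 ± 4.10 FPKM, and the median gene was at 283.7 FPKM. By RefSeq biotype, 58 of the 70 were protein coding, 7 pseudogenes, 3 transcribed pseudogenes and 2 long non-coding RNAs (Malat1 and Gas5, which hosts small nucleolar RNAs in its introns).

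**Figure D1:**
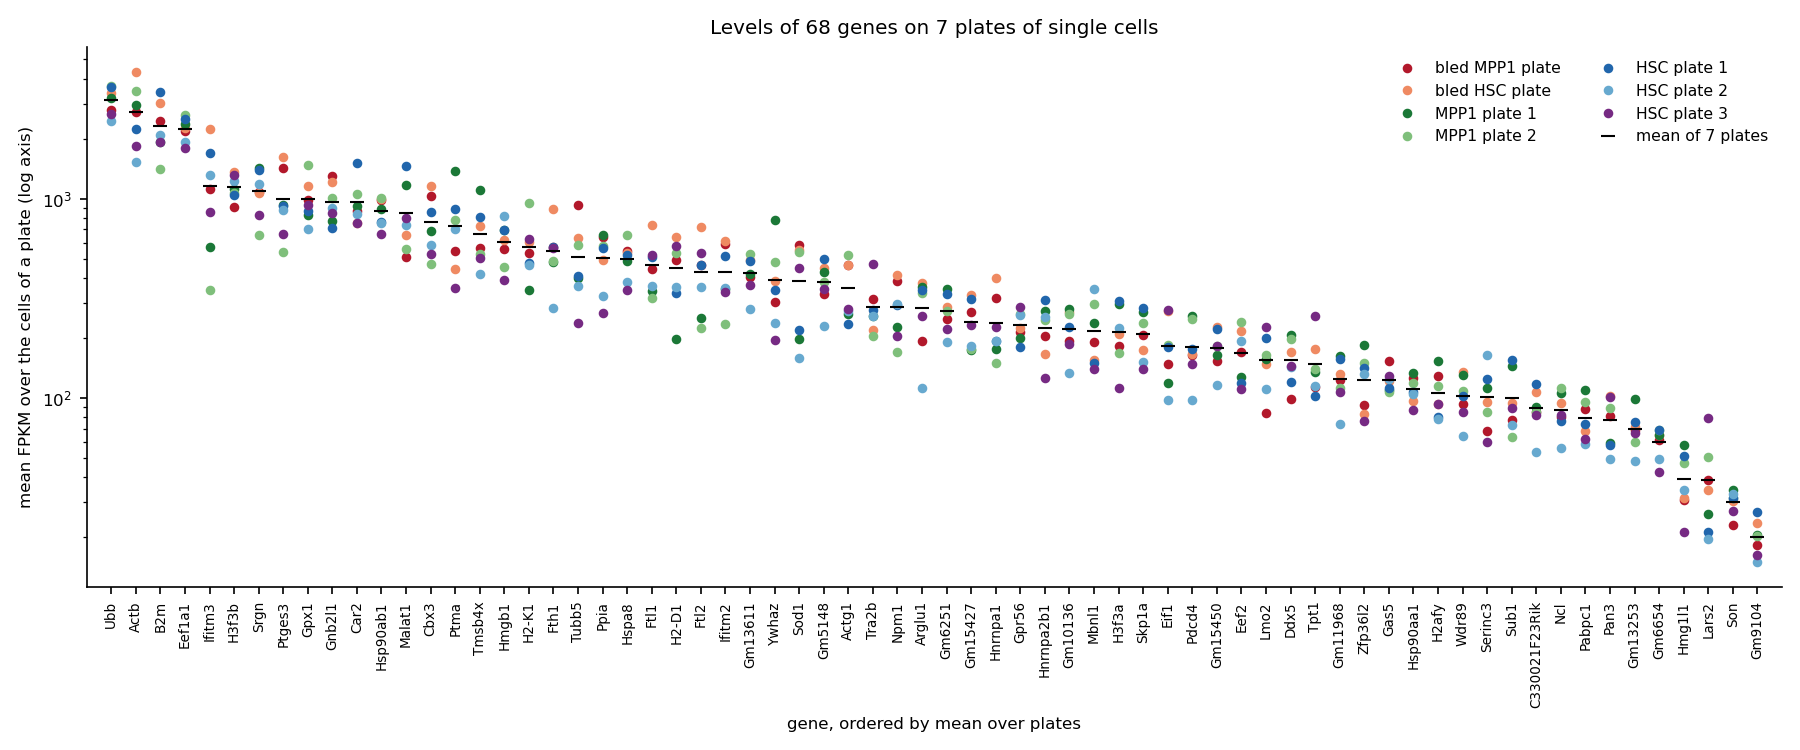
Mean FPKM of 68 of the 70 genes on each of 7 plates (log axis, 1 point per plate, genes ordered by their mean over plates). The means over plates run between 3113 FPKM for Ubb at one end and 20.0 FPKM for Gm9104 at the other, and Ifitm3 has the widest gap between plates, 6.38-fold.

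Level alone did not decide membership. Of 428 genes with a mean of FPKM 100 or more over the plates, 59 were among the 70 and 43 were ribosomal protein genes, while 106 were detected in under 50% of cells on at least 1 plate. Of the 100 genes with the highest means 36 were among the 70. The ranks went down to 2521, the rank of Gm9104. Together the 70 genes made up a plate median of 12.7 to 14.8% of all FPKM in a cell.

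The limit cut through a continuous range. Just inside it lay Ifitm3 and the histone gene H3f3a (90.2% on their lowest plate) and Actg1, Pdcd4 and Zfp36l2 (90.0%). Just outside it lay the splicing factor gene Srsf2 and the myosin light chain gene Myl12b (89.6%), and Oaz1, Prrc2c and Itm2b (89.0%). The plate that set the limit differed between them, and HSC plate 3 set it for the last 3. Without HSC plate 3 the rule gave 93 genes in place of 70.

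The wells that the labels give as empty held the same genes. No minimum of genes was set for the 150 wells labelled with no cell. In them the 70 genes were detected in a median of 47.0% of wells, between 11.3% for Gm6654 and 97.3% for Malat1. Of the 70, 29 reached FPKM 1 in at least 50% of these wells, against 54 of all 21664 genes (0.249%). Actb had a mean of 2243 FPKM in the 1-cell wells of HSC plate 1, against 2033 FPKM in its no-cell wells, while on HSC plate 2 it had 1517 FPKM in 1-cell wells and 64.2 FPKM in no-cell wells. Srgn had 1396 FPKM in 1-cell wells and 222 FPKM in no-cell wells of HSC plate 1, and 1188 FPKM against 19.5 FPKM in the same kinds of well on HSC plate 2. The no-cell mean could also be the higher one. For Ifitm3 it was 2078 FPKM, against 568 in 1-cell wells, on MPP1 plate 1, and 1558 against 859 on HSC plate 3. For B2m it was 3174 FPKM, against 1921, on HSC plate 3. On their other plates both genes had the lower mean in no-cell wells. FPKM is scaled to the library's own total, so a well with little RNA can show a high FPKM. The median detection in no-cell wells was 41.4% on the bled MPP1 plate, 41.7% on the bled HSC plate, 57.1% and 53.8% on MPP1 plates 1 and 2, and 66.7%, 16.7% and 27.3% on HSC plates 1, 2 and 3. The no-cell wells of HSC plate 1 stood highest and those of HSC plate 2 lowest. The part of free or carried-over RNA in the detection of these genes in 1-cell wells was not tested. In the 59 wells with 2 or more cells all 70 genes were detected in at least 94.9% of wells, where 320 of all genes (1.48%) reached 90%.

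**Figure D2:**
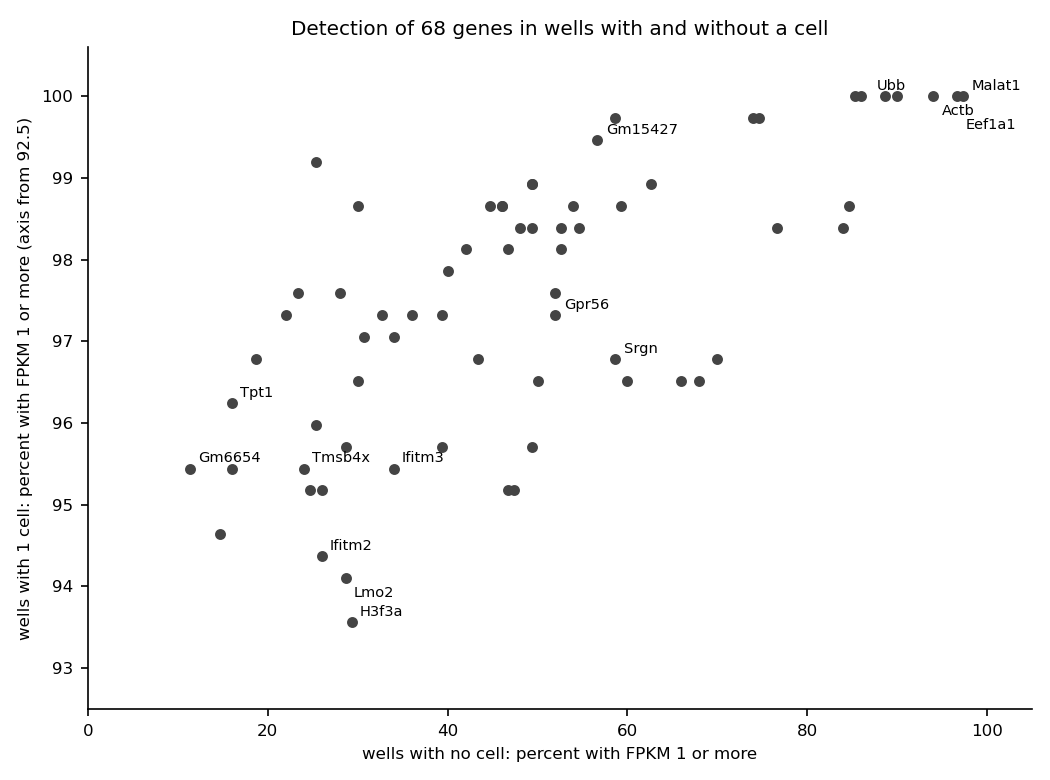
Percent of wells in which each of 68 of the 70 genes reached FPKM 1, 1 point per gene over all 7 plates. The vertical axis shows the 1-cell wells with at least 1000 genes, and the horizontal axis all no-cell wells. The vertical axis does not start at 0 and its lowest gene, H3f3a, is at 93.6%, while along the horizontal axis the genes run between 11.3% and 97.3%.

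Few cells missed many of the genes. All 70 were detected in 216 of the 373 cells (57.9%), 113 cells missed 1 to 3 of them, and 24 cells missed 10 or more, up to 24 genes. The share of cells with all 70 was 74.0% for bled MPP1 and 72.9% for bled HSC, 70.6% and 66.7% on MPP1 plates 1 and 2, and 46.0%, 62.3% and 27.4% on HSC plates 1, 2 and 3. HSC plate 3, the plate with the fewest genes per cell, had the lowest share. Within each plate, the cells that missed more of the 70 had fewer detected genes in all. Spearman's rho was between -0.552 on the bled HSC plate and -0.74 on HSC plate 3, over 48 and 73 cells. Both measures come from the same libraries, so this is a description.

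**Figure D3:**
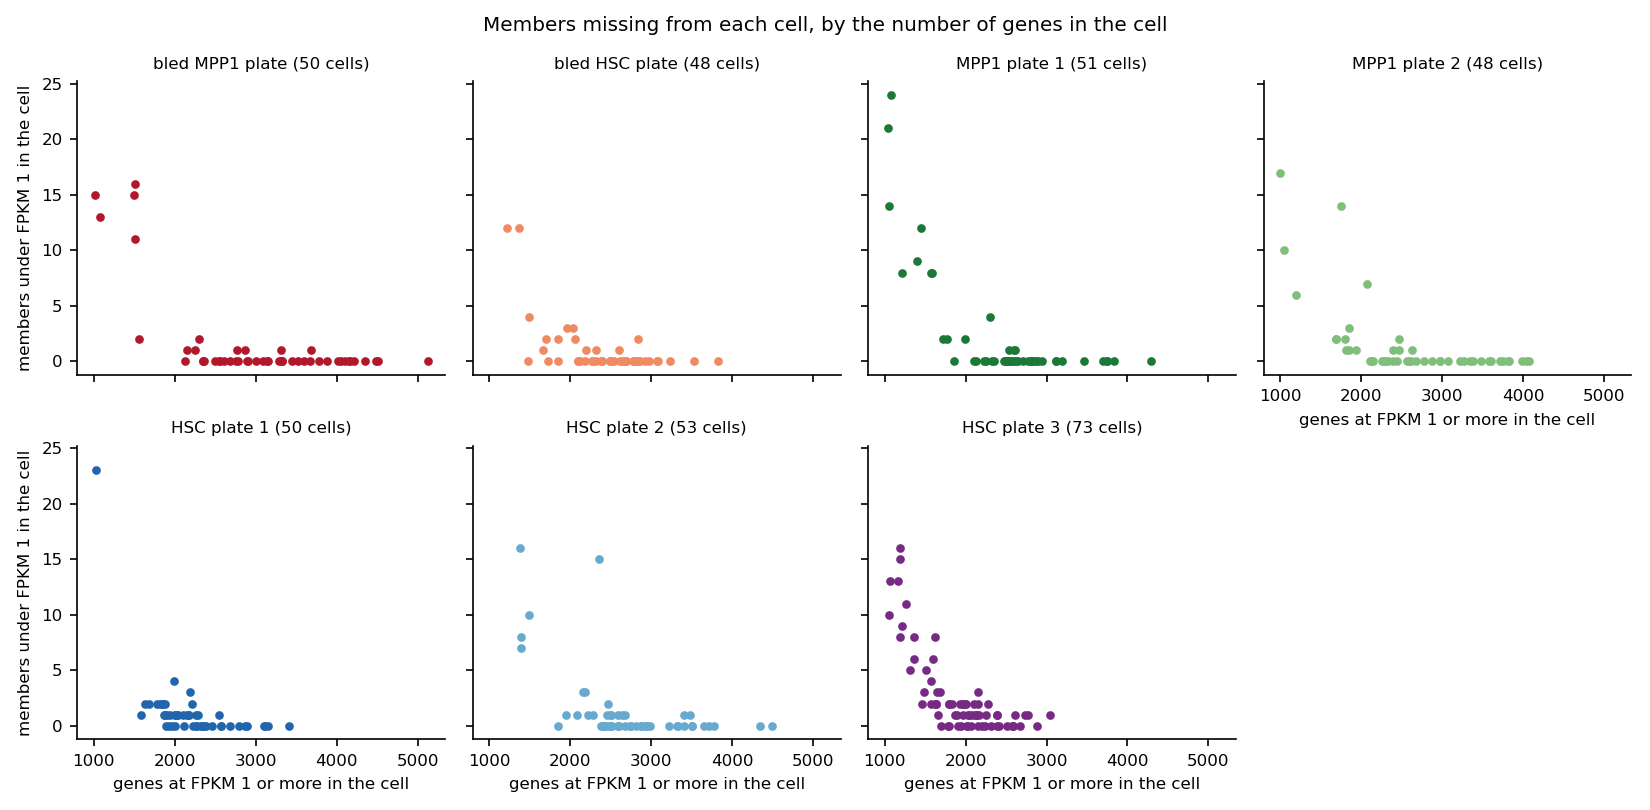
Number of the 70 genes not detected in a cell (vertical axis) against the number of all genes detected at FPKM 1 in that cell (horizontal axis), 1 panel per plate and 1 point per cell. In each panel cells with fewer detected genes tend to miss more of the 70, with Spearman's rho between -0.552 and -0.74.

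The 70 are 0.323% of all genes in the tables. The lists by function differ in length, and iron and redox biology gave the largest share of its genes, 5 of 28. By number, the translation factors gave the most members, 7 of 53 listed genes. Beside Eef1a1 these included Gnb2l1 (current symbol Rack1), a scaffold on the small ribosomal subunit (962 ± 222 FPKM, SD over 7 plates), Eif1, Eef2, Tpt1 and Pabpc1. Of 22 genes of the nucleolus and ribosome assembly 2 were members, Npm1 (284 ± 91.5) and Ncl (86.7 ± 19.0), both abundant nucleolar proteins. Of 44 chaperone genes there were 5: Ptges3, the p23 co-chaperone of Hsp90 (996 ± 390.0), Hsp90ab1, Ppia (cyclophilin A, 502 ± 153), Hspa8 and Hsp90aa1. Of 55 genes of ubiquitin and the proteasome 3 were members, among them Ubb and Skp1a, a subunit of SCF ubiquitin ligases (209 ± 57.4). No proteasome subunit was among them.

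RNA-binding and splicing genes gave 6 of 75, with Tra2b (285 ± 89.0 FPKM), Hnrnpa1 (236 ± 90.4), Hnrnpa2b1 (225 ± 64.2), Ddx5, Sub1 and Son. Chromatin genes gave 6 of 45: H3f3b, H3f3a, Cbx3 or HP1-gamma (758 ± 262), Ptma or prothymosin alpha (725 ± 339), Hmgb1 and the macroH2A gene H2afy. Both H3f3 genes encode the histone variant H3.3, which is also made outside S phase. Of 28 genes of iron and redox biology 5 were members: Gpx1, a glutathione peroxidase (991 ± 253), Fth1 and Ftl1, the heavy and light chains of ferritin (548 ± 179 and 462 ± 146), Ftl2 and Sod1. Antigen presentation gave 3 of 22, B2m and the class I heavy chains H2-K1 (572 ± 189.7) and H2-D1 (448 ± 158). The actin list gave 3 of 55, Actb, Tmsb4x, which binds free actin (663 ± 235.0), and Actg1 (357 ± 120.0), and the list of microtubules and intermediate filaments 1 of 18, Tubb5 (507 ± 228). Of 61 signalling genes Ywhaz, a 14-3-3 protein (389.8 ± 198), and Serinc3 (101.3 ± 36.0) were members.

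Other functions that all cells use were not represented. None of 84 genes of oxidative phosphorylation, 22 of glycolysis and 53 of membrane traffic and the lysosome met the limit. Gapdh, the glycolytic enzyme often used as a reference gene, came nearest among the glycolysis genes. Of 25 genes that are commonly used as references 10 were among the 70, including Actb, B2m, Ppia, Ywhaz, Eef1a1, Hsp90ab1, Tubb5, Eef2 and Ubb. These lists were drawn up with earlier results of the same data known, and a count of members is not a test.

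From a list of 116 measured genes whose expression is largely restricted to blood cells, 3 were members (2.59%, against 0.323% of all genes): Srgn, Gpr56 and Lmo2. All 3 are also known from some cells outside blood, such as endothelium for Lmo2. Angpt1 (88.0% on its lowest plate), Arhgdib (86.3%) and Laptm5 (84.9%) came next, and the receptor Kit was at 72.9%. Of 38 stem cell genes there were also 3, Ifitm3, Ifitm2 and Zfp36l2, followed by Meis1 (81.3%) and Ifitm1 (77.1%). Zfp36l2, an RNA-binding protein that promotes decay of its targets, is also the only member among 31 immediate early genes. Members without a list of their own include Car2, carbonic anhydrase 2, which is abundant in erythroid cells (957 ± 263 FPKM, SD over 7 plates).

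Srgn encodes serglycin, the core protein of proteoglycans in the granules of blood cells. Its mean was 1080 FPKM on the bled MPP1 plate, 1065 on the bled HSC plate, 1422 and 655 on MPP1 plates 1 and 2, and 1396, 1188 and 830.0 on HSC plates 1, 2 and 3. MPP1 plates 1 and 2 held the highest and the lowest of these values. Lmo2, an adaptor that joins transcription factors of the stem cell programme, was at 84.3 FPKM on the bled MPP1 plate, 147 on the bled HSC plate, 157 and 164 on MPP1 plates 1 and 2, and 200.3, 110.3 and 226 on HSC plates 1, 2 and 3. Gpr56 (current symbol Adgrg1), an adhesion receptor, was at 214 FPKM on the bled MPP1 plate, 225 on the bled HSC plate, 199.7 and 263 on MPP1 plates 1 and 2, and 179, 261 and 285 on HSC plates 1, 2 and 3. For Lmo2 and Gpr56 the MPP1 values lay inside the range of the HSC values. In no-cell wells Srgn was detected in 58.7%, Gpr56 in 52.0% and Lmo2 in 28.7%.

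Ifitm3 and Ifitm2 encode membrane proteins that hinder the entry of viruses, and are also abundant in stem cells. Ifitm3 was at 1116 FPKM on the bled MPP1 plate, 2224 on the bled HSC plate, 568 and 349 on MPP1 plates 1 and 2, and 1685, 1312 and 859 on HSC plates 1, 2 and 3. Both MPP1 plates lay under all 3 HSC plates. Ifitm2 was at 594 FPKM on the bled MPP1 plate, 610.4 on the bled HSC plate, 351 and 234.6 on MPP1 plates 1 and 2, and 516, 355 and 339 on HSC plates 1, 2 and 3. Its MPP1 and HSC values overlapped.

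A further group of members shares its sequence with other genes. With BLAST, a single transcript per gene was searched against a single GENCODE M21 transcript of each other gene. Stretches at 95% identity or more were joined over all other genes. They covered at least 50% of the transcript for 24 of the 70 genes (34.3%), against 670 of 10003 genes with a mean of FPKM 1 or more (6.70%). Of 87 ribosomal protein genes searched, 58 had such a match. For 9 members the closest protein-coding gene was a ribosomal protein gene whose name the rule leaves out. Among them, Gm13611 matched Rpl36, Gm6251 Rpl32, Gm10136 Rpl26, Gm15450 Rps23, Gm11968 and Gm13253 both Rps15a, Gm6654 Rps26, and Gm9104 Rpl21. Ftl2 matched Ftl1 and Hmg1l1 matched Hmgb1, so in these pairs both the copy and the parent are members. The files place 2 of the members, Gm15450 and Gm15427, on chromosomes 13 and 8, while RefSeq places the genes of these names on chromosomes 3 and 1. Their rows may stand for another locus, and for Gm15450 the chromosome in the files is that of Rps23. Without these 2 genes the counts are 22 of the 70 and 7 members. The stretches below, each 60 bases read 5′ to 3′ on the gene's own strand in the GENCODE M21 transcripts (GRCm38), show how little tells copy and parent apart. Capitals mark the bases that differ within a pair.
Gm13611: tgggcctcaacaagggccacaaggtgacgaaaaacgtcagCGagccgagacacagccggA
Rpl36: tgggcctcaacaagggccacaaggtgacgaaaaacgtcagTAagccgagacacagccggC
Gm11968: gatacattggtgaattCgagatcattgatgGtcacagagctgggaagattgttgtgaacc
Rps15a: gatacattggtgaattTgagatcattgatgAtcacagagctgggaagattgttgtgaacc
Gm9104: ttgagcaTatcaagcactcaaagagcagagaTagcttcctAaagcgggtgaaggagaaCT
Rpl21: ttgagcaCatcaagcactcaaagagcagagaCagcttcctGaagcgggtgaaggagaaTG
Hmg1l1: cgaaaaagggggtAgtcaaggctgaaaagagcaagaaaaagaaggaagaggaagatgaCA
Hmgb1: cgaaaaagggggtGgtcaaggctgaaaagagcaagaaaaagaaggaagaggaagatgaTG

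The stretch of Gm13611 lies at chr2:32271870-32271929 (+) and that of Rpl36 at chr17:56613613-56613672 (+). Those of Gm11968 and Rps15a lie at chr11:6172844-6172903 (-) and chr7:118114805-118114864 (-), and those of Gm9104 and Rpl21 at chr17:45466065-45466124 (+) and chr5:146835599-146835658 (+). Hmg1l1 lies at chr7:42021347-42021406 (+) and Hmgb1 at chr5:149048814-149048873 (-). The deposited values were made on another build, mm9, so no coordinate from the files is used here.

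Levels were not ordered as copy under parent. Gm11968 and Gm13253 were at 124 and 69.9 FPKM, against 6.39 FPKM for their parent Rps15a, which met FPKM 1 in 82.2% of cells on its lowest plate. Gm13611 was at 425 FPKM, against 167 FPKM for Rpl36, and Gm9104 at 20.0 FPKM, against 18.8 FPKM for Rpl21. The reverse order held for Gm6251 (272 FPKM, against 1162 for Rpl32), Gm6654 (60.1, against 142 for Rps26) and Hmg1l1 (39.1, against 603 for Hmgb1). Ftl2 and Ftl1 stood side by side at 430.3 and 462 FPKM. Over the cells of a plate, Ftl2 and Ftl1 had a Spearman's rho of 0.978, Gm6251 and Rpl32 one of 0.906 and Hmg1l1 and Hmgb1 one of 0.562 (median over 7 plates of 48 to 73 cells). How reads are split between such genes depends on the counting, so the levels of these 24 genes and of their parents are uncertain, and which of them is transcribed was not tested. C330021F23Rik (current symbol Rps23rg1) and Gm5148 share a stretch at 99.3% identity as well, and followed each other with a rho of 0.965.

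The promoters of the members were compared by their letters. RefSeq promoter windows (GRCm38.p6) were found for 47 of the 70 genes, and the 250 bases before the start were searched on both strands. TATAAA, the letters of the TATA box, occurred in 12 of 47 (25.5%), against 7.73% of 8055 genes with a mean of FPKM 1 or more and 14.3% of all 27025 windows. Within 16 to 45 bases before the start and on the gene's strand, it occurred in 5 (10.6%), against 1.33% of the genes with a mean of FPKM 1 or more. CCAAT occurred in 51.1%, against 41.2%, and GGGCGG in 61.7%, against 64.4% of those genes. None of these motifs lies within another. A match of letters is not a site of binding. For 4 of the 5 members the last 60 bases before the start are shown, with TATAAA in capitals.
H3f3b: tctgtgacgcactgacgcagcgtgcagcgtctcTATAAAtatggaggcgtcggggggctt
Ppia: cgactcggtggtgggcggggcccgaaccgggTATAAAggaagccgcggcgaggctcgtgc
H2-D1: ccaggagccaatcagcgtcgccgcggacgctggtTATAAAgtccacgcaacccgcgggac
Sod1: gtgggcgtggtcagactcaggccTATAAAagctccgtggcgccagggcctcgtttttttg

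These 4 windows lie at chr11:116024505-116024564 (-), chr11:6415807-6415866 (+), chr17:35263034-35263093 (+) and chr16:90220702-90220761 (+), in the order shown. The remaining one of the 5 is Ddx5, an RNA helicase gene.

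Detection in nearly every cell did not mean an even level. The SD over the cells of a plate of log2(FPKM + 1), averaged over plates, had a median of 1.75 over the 70 genes. It was 1.67 over the 10027 genes with a mean of FPKM 1 or more, and 1.50 over the 55 ribosomal protein genes past the same limit. On the linear scale the coefficient of variation had a median of 0.868 over the 70 genes, against 3.92 over the same 10027 genes. Both measures are tied to the level and to the choice by detection. Malat1 was the most even (SD 1.00 on the log2 scale), followed by Actb (1.09) and Gm15427 (1.13). Tra2b, a splicing regulator, was the most uneven (2.65), followed by Ifitm3 (2.57). For Tra2b the 10th and the 90th percentile of cells averaged 6.90 and 688 FPKM over the plates, and for Malat1 353 and 1438 FPKM. The median SD was 1.70 on the bled MPP1 plate, 1.38 on the bled HSC plate, 2.09 and 1.64 on MPP1 plates 1 and 2, and 1.59, 1.71 and 2.08 on HSC plates 1, 2 and 3. The 2 MPP1 plates lay further apart than the bled plates did from each other.

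Next, the 2 MPP1 plates were compared with HSC plates 1 and 2. None of the 70 genes passed an adjusted p of 0.05 in limma fitted on 9833 genes, where 1 gene did (0.0102%). That gene, Snora30, a small nucleolar RNA outside the set and named after its values were seen, was at 419 and 350.3 FPKM on the MPP1 plates and listed at 0 on both HSC plates (limma adjusted p = 2.79e-05). At an unadjusted p under 0.05 there were 4 of the 70 (5.71%), against 667 of all genes (6.78%). Of these 4, 3 were higher in MPP1 and 1 lower, against 2.56% and 4.22% of all genes. Without the filter on low values there was 1 of the 70, against 776 of 13667 genes. With each cell scaled to the same total there were 8, against 771 of 11253 genes. The median log2 difference of the 70 moved with the plates. It was 0.43 without HSC plate 1, -0.04 without HSC plate 2, 0.18 without MPP1 plate 1 and 0.11 without MPP1 plate 2. The rule asked for detection on every plate, which limits how far such a gene can fall on 1 of them.

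Ifitm3 had the smallest p among the 70. It was at 568 and 349 FPKM in MPP1, against 1685 and 1312 FPKM in HSC, without overlap (log2 difference -1.74, SE 0.37, limma adjusted p = 0.272). Its adjusted p was 0.0121 where log2 values were averaged over cells and 0.0288 where each cell was scaled to the same total, and lay between 0.00068 and 0.979 over 11 alternatives. Ywhaz was at 784 and 479 FPKM in MPP1, against 347 and 237 FPKM in HSC, without overlap (1.09, SE 0.40, adjusted p = 0.667 by limma). Actb was at 2934 and 3486 FPKM in MPP1, against 2243 and 1517 FPKM in HSC, also without overlap (0.79, SE 0.33, adjusted p = 0.699 by limma). The fourth, Pdcd4, an inhibitor of translation initiation, differed by 0.95 (SE 0.43, adjusted p = 0.728 by limma). Of the 70 genes 48 had a positive difference (68.6%), with a median of 0.21, against 48.4% and a median of -0.04 over all genes. Without HSC plate 2 the median of the 70 was -0.04 and 32 were positive.

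The bled plates were then set against the 4 normal plates, with cell type as a covariate. None of 10017 genes passed an adjusted p of 0.05 in limma (0%), and so none of the 70. The smallest adjusted p among the 70 was 0.797. At an unadjusted p under 0.05 there were 12 of the 70 (17.1%), against 586 of all genes (5.85%). Of these 12, 10 were higher on the bled plates and 2 lower, against 3.39% and 2.46% of all genes. The 12 rest on both bled plates. The median difference of the 70 was -0.15 without the bled HSC plate and 0.36 without the bled MPP1 plate. There were 7 of the 70 without MPP1 plate 1, against 583 of 10017 genes. Without the filter on low values there were 5, against 752 of 14131 genes. Under the other alternatives there were 11 to 15, against 513 to 842 of 9947 to 11473 genes. Ptges3 was at 1422 FPKM on the bled MPP1 plate and 1618 on the bled HSC plate, against 929 and 537 on MPP1 plates 1 and 2 and 919 and 876 on HSC plates 1 and 2 (log2 difference 0.93, SE 0.28, limma adjusted p = 0.797). Hnrnpa1, an RNA-binding protein of splicing, was at 318 FPKM on the bled MPP1 plate and 401 on the bled HSC plate, against 175 and 149.7 on MPP1 plates 1 and 2 and 193 and 192 on HSC plates 1 and 2 (1.01, SE 0.31, the same adjusted p by limma). Both bled values lay over all 4 normal values for either gene. For Ifitm3 the difference was 0.95 (SE 0.30, the same adjusted p by limma). The other 7 higher ones were Ftl2, Sod1, Tubb5, Cbx3, Ifitm2, Npm1 and Gnb2l1, with differences of at least 0.58, and the lower ones were Ptma (-0.87) and Zfp36l2 (-0.78). These were named after their values were seen. The direction over the set was not stable: 43 of 70 differences were positive with a median of 0.08, against 0.01 over all genes, but the median of the 70 was -0.08 with each cell scaled to the same total, -0.07 without HSC plate 2 and -0.15 without the bled HSC plate.

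Whether bleeding went with different changes in MPP1 and in HSC was tested by the interaction. No gene of 10017 passed an adjusted p of 0.05 in limma (0%), and 511 (5.10%) had an unadjusted p under 0.05, 3.17% with a positive and 1.93% with a negative term. They held 1 of the 70, Actb, with a negative term. Actb was at 2735 FPKM on the bled MPP1 plate, against 2934 and 3486 in normal MPP1, while it was at 4343 FPKM on the bled HSC plate, against 2243 and 1517 in normal HSC (interaction -1.46 on the log2 scale, SE 0.60, limma adjusted p = 0.964). Ddx5 (-1.40, SE 0.62) and Ywhaz (-1.44, SE 0.70) came next, with the same adjusted p. Of the 70 interaction terms 51 were negative, with a median of -0.34, against 0.13 over all genes. Without HSC plate 2 the median was -0.11 with 44 negative terms, and without HSC plate 1 it was -0.50 with 54. The 3 comparisons share plates, so their values are not independent of each other.

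**Figure D4:**
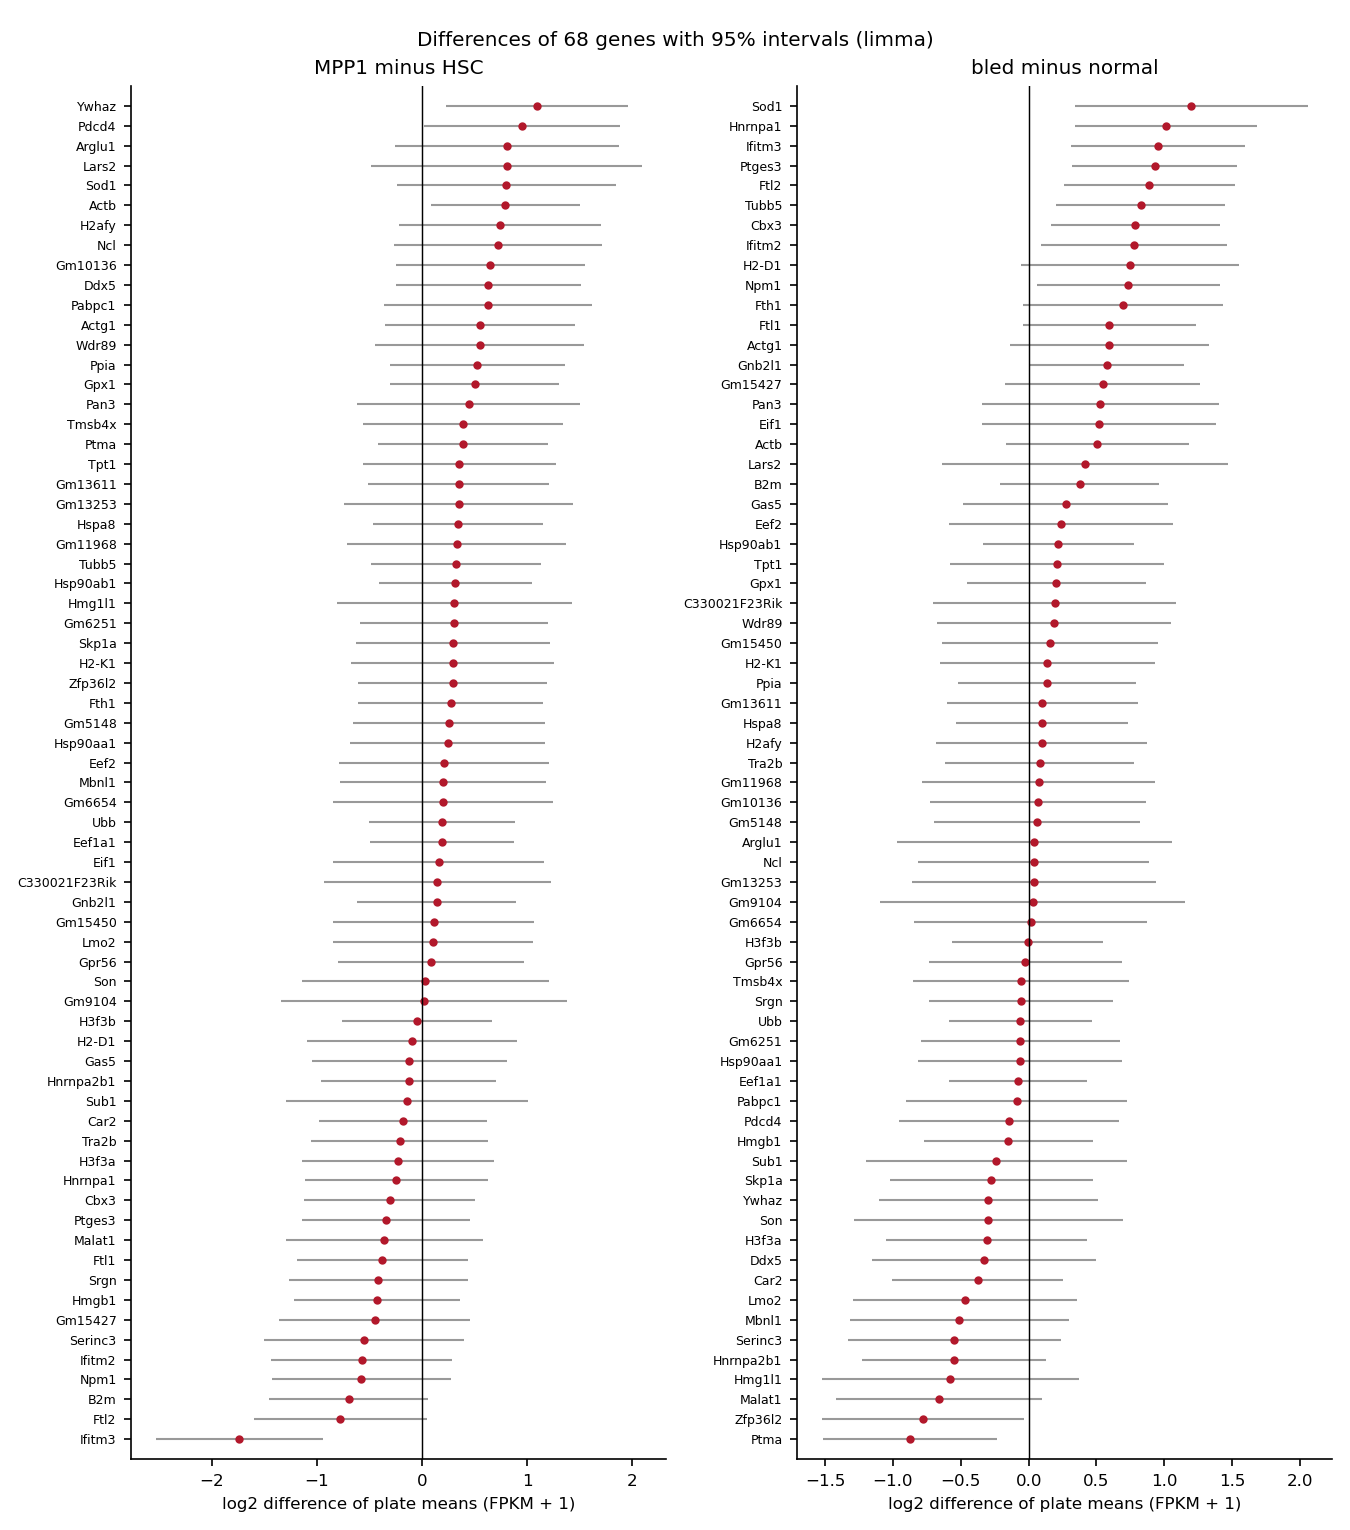
Log2 differences of 68 of the 70 genes with 95% confidence intervals from limma, MPP1 minus HSC in one panel and bled minus normal in the other. Ifitm3 lies lowest in the first panel at -1.74, and no gene of either panel passed an adjusted p of 0.05.

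The 18 bulk populations, which run between HSC and the late cells of the erythroid, megakaryocyte, granulocyte-macrophage and lymphoid lines, gave levels outside the data that chose the set. In bulk samples, fewer cells of a type and less RNA per cell cannot be told apart, and with 1 library per population no test is possible. The bulk values carry the name PMA RNA-seq, while the single cells were amplified by Smart-seq. Levels in the 2 kinds of library may not be on 1 scale, and method and kind of sample cannot be told apart. Of the 70 genes 56 were matched in the bulk table. The other 14, which include Malat1 and Tpt1, had no match and are not analysed there. Of the 56 genes 23 were at FPKM 1 or more in all 18 populations, against 407 of 18855 genes (2.16%), and 30 were so in all but mature megakaryocytes. Mature megakaryocytes had the fewest genes at FPKM 1 (1642, with bulk HSC next at 2866) and the lowest value of 29 of the 56. For the 30 and the 29 the share over all genes was not counted, so neither is read as a trait of the 56.

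The range of a gene over the populations, highest minus lowest log2(FPKM + 1), had a median of 4.72 over the 56, against 5.09 over 6824 genes with a bulk mean of FPKM 1 or more. A range of 2 or more was met by 54 of the 56, against 99.8% of those genes. The narrowest ranges were those of Hnrnpa1 (0.32), C330021F23Rik (0.78), Ubb (2.07), Gm5148 (2.23) and Hmgb1 (2.23). These were low throughout: Ubb, which had the highest single-cell mean of the 70, was between 0.789 and 6.53 FPKM, and Hnrnpa1 did not exceed 0.25 FPKM. Over the 56 genes, the level in bulk HSC and the mean over single-cell plates had a Spearman's rho of 0.187. This is a description across genes, between libraries that differ in the name of their method as well. The accession given for Hnrnpa1, Gpr56 and Lmo2 differs between the tables.

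The widest ranges were those of Lars2 (13.14), Zfp36l2 (10.86), Car2 (9.34), Gpr56 (8.90) and H2afy (8.61). Lars2, the mitochondrial leucyl-tRNA synthetase, was at 4484 to 9024 FPKM in 17 populations and is listed at 0 in MPP4, while its mean in single cells was 38.6 FPKM. Zfp36l2 was highest in HSC, at 3023 FPKM, followed by MPP2 at 736 FPKM, and lowest in mature megakaryocytes at 0.626 FPKM, with 23.7 FPKM in MPP1. Car2 was highest in MEP (1147 FPKM) and pro-erythrocytes (1054), populations on the path to red cells, and lowest in mature megakaryocytes (0.768). Fth1 had its highest values in the same populations, 8502 FPKM in MEP and 4977 in pro-erythrocytes, and its lowest in MPP1 at 50.5.

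Among the blood-restricted members, Srgn was at FPKM 1 or more in all 18 populations, highest in HSC (468 FPKM), then in GMP-11 (224), and lowest in mature megakaryocytes (3.75). Lmo2 was highest in PreCFU-E (163 FPKM), then in MPP1 (79.6) and HSC (68.7), and fell below FPKM 1 in mature megakaryocytes alone (0.814). Gpr56 was highest in MPP3 (805 FPKM), MPP2 (616) and MPP4 (465), and below FPKM 1 in CLP Sca1 high alone (0.688). Ifitm3 reached FPKM 1 in 12 of the 18 populations, was highest in CMP (75.7 FPKM), and is listed at 0 in CLP Sca1 high. In bulk MPP1 it was at 31.0 FPKM and in bulk HSC at 49.8.

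**Figure D5:**
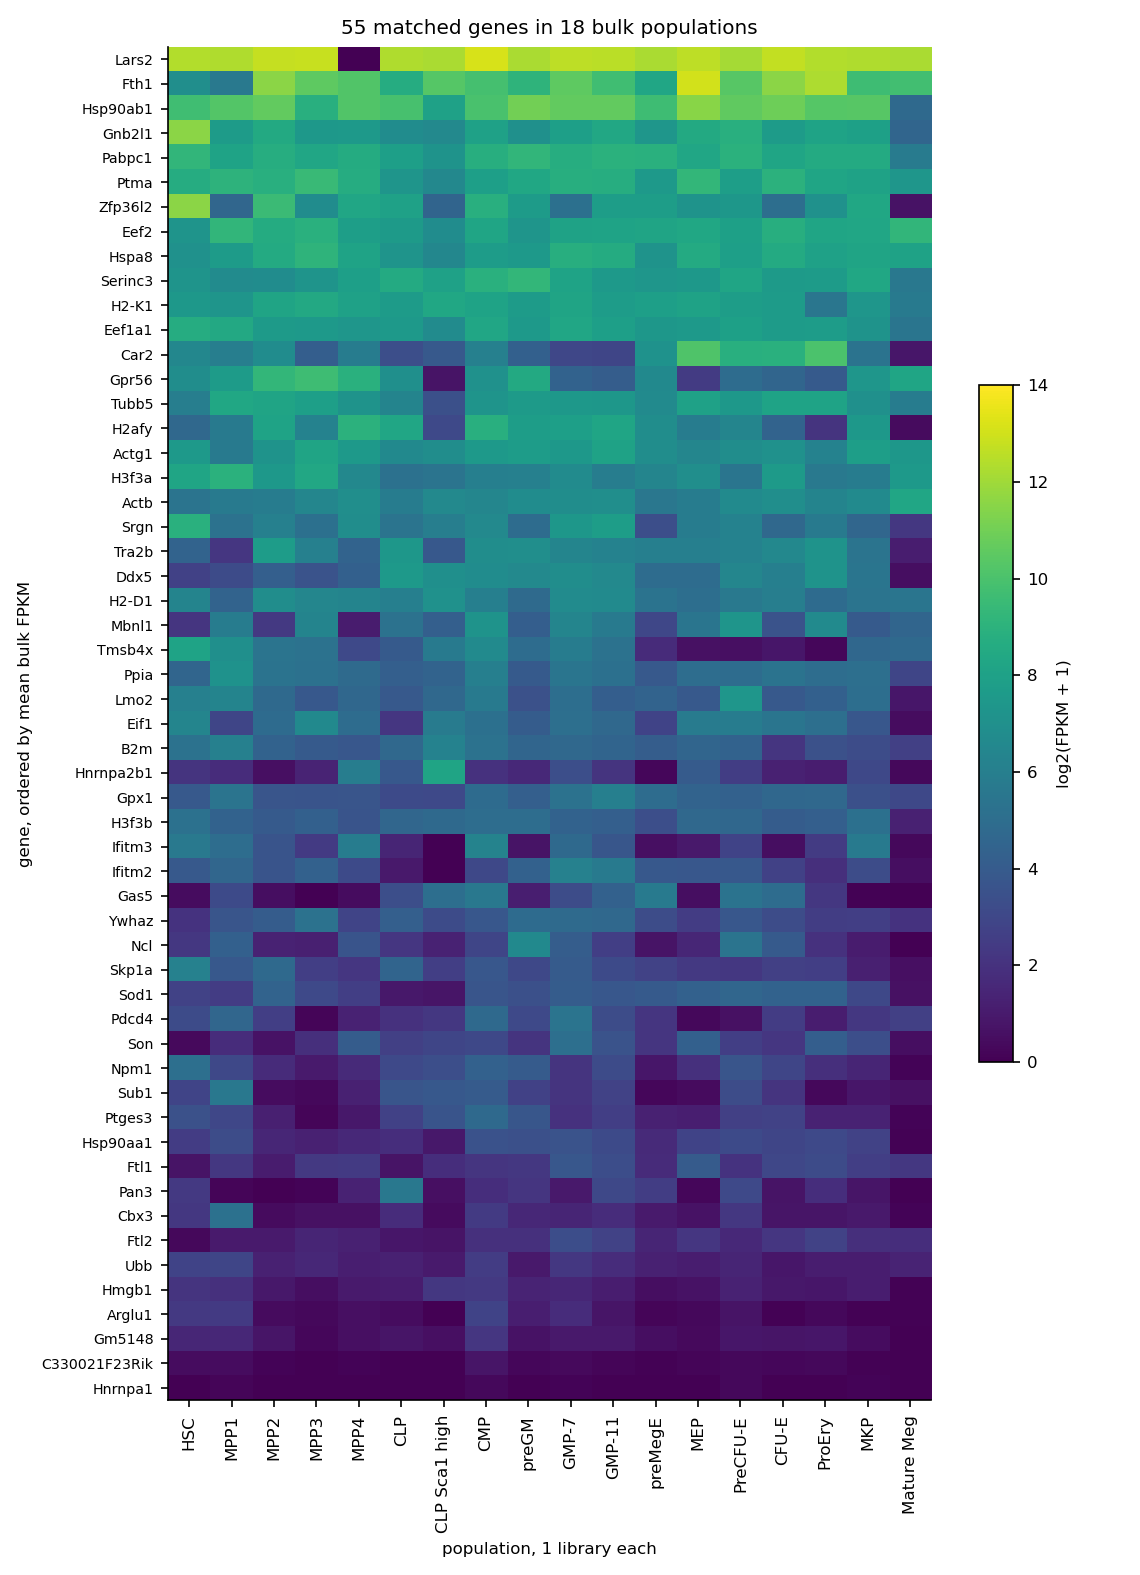
Heat map of log2(FPKM + 1) for 55 of the 56 matched genes (rows) in 18 bulk populations (columns), 1 library each. The column of mature megakaryocytes, the library with the fewest genes at FPKM 1, is low for most genes, while Lars2 is high in every column but MPP4.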

How the data were processed

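The authors deposited FPKM values, 1 per gene and library. The submitters' processing notes name TopHat 1.3.3, Cufflinks 1.2.1, Bowtie2 2.2.1 and the build mm9, without their roles. Read depth is unknown: in 35 pairs of wells, at most 11.5% of the 200 lowest shared genes fell in the most common 1% bin of their ratio, so no common step of whole reads was seen, and the number of reads limits the precision by an amount that cannot be given. No pair of columns held identical values.

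The genes and the lists were chosen with earlier results of these data known. For each plate, FPKM was averaged over cells, and log2(mean FPKM + 1) was tested across all genes with a mean of FPKM 1 or more by limma 3.58.1 (R 4.3.3; trend, empirical Bayes, Benjamini-Hochberg, two-sided). On this scale the change of a low gene is understated. Cells are not replicates, and n is the number of plates. The test was checked on simulated data with 200 changed genes. The changes put in were larger than any difference given for the 70 genes, so the check does not cover changes of that size. Copies were sought with BLAST+ 2.17.0. Names were matched through RefSeq (GRCm38.p6): all 70 genes, 61 by accession, 6 by symbol and 3 by synonym. Values were summarised with Python 3.11.15, pandas 2.3.3 and NumPy 2.4.6.

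The named genes are all blood-restricted members, up to 3 members per other list by mean FPKM, the 3 with the smallest and the 3 with the largest spread, 5 on each side of the 90% limit, the 5 widest and the 5 narrowest in bulk, and the 3 with the smallest p per test. Some genes that this rule names are not reported here. Further members, and the pairs of copies, were named after their values were seen. Alternatives changed the pseudocount, the filter on low values, the averaging, the scaling, the minimum of genes per cell, the detection limits and the plates used.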

Additional observations from a re-analysis of the deposited data

How the results depend on the processing

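The number of genes chosen depends on the limits. It was 82 at a detection limit of FPKM 0.1 and 45 at FPKM 5, 133 at 80% and 27 at 95% of cells, 38 with cells of at least 500 genes and 115 with at least 2000, and 124 at 90% over all cells together. Leaving out 1 plate at a time gave 70 to 93 genes, and the wells with 2 or more cells alone, an alternative chosen after seeing the data, gave 244. The median spread was 2.04 at a pseudocount of 0.1, 1.29 with cells of at least 2000 genes, and 1.69 to 1.80 with 1 plate left out. The median bulk range was 6.29 at a pseudocount of 0.1, 5.66 with populations scaled to the same total, 3.96 without mature megakaryocytes and 3.87 without pro-erythrocytes and CFU-E as well. MPP1 against HSC called 0 genes without the filter on low values, 38 with log2 values averaged over cells, 6 with cells scaled to the same total, and 0 in each fit with 1 plate left out, where a lone plate is assumed to vary like the other groups. Members called were 1 with averaged log2 values and 1 with scaled cells, Ifitm3 both times. With the replicate number as a block, 58 genes were called, 1 of them a member (Ifitm3, limma adjusted p = 0.00068). The deviations of same-numbered plates had a correlation of 0.0423 across 9833 genes, which does not show that the numbers pair the plates. Bled against normal called 6 genes with averaged log2 values, none of them a member, and 0 to 1 with 1 plate left out. No paired analysis was possible because each bled group is 1 plate. The other 60 recomputed values of these results stayed within the limits used (1.5 times for a count). Direction was followed for the 3 genes with the smallest p in each fit, and none of these reversed. Other members did reverse: in MPP1 against HSC 48 of the 70 were positive, and 32 without HSC plate 2. The medians over the 70 genes changed sign as given above. The causes of these changes were not tested. What limits these results is the number of plates, the unknown read depth and the detection of the same genes in wells without a cell.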
